A study of Mus musculus with 4 samples.

Results

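Plasmacytoid dendritic cells of the mouse liver were picked from single-cell RNA sequencing of CD45-positive leukocytes by a rule on raw UMI counts, where each unique molecular identifier (UMI) marks 1 captured transcript. A member held at least 2 UMIs of Siglech and at least 1 UMI over Klk1, Cox6a2, Smim5, Upb1 and Atp2a1 combined. It held no UMI of the B cell gene Cd79a or of the CD3 genes of T cells (Cd3d, Cd3e and Cd3g), and at most 1 UMI of the myeloid gene Lyz2. The rule found 557 cells among the 20039 barcodes that had at least 200 genes and under 10% mitochondrial UMIs. Since these counts chose the cells, the levels of those genes are given as a description and support nothing further.

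The livers came from IL-22sgBFP mice, in which blue fluorescent protein (BFP) reports expression of the cytokine gene Il22, 12 h after 300000 MC38 cells (a mouse colon carcinoma line) in 250 µl of phosphate-buffered saline were injected into the spleen, and from such mice before any injection (0 h). BFP-negative (called IL-22-negative here) and BFP-positive (IL-22-positive) leukocytes of each time were sorted apart, which gave 4 groups of 1 library each. The members number 327 at 12 h and 216 at 0 h in the IL-22-negative libraries, and 9 at 12 h and 5 at 0 h in the IL-22-positive ones. All 4 groups carry the reporter allele, the number of mice behind a library is not given in the labels, and no sham-injected group was analysed here, so the cancer cells and the injection itself cannot be told apart.

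Each group is a single library without replicates, so no test was possible. UMIs of the members were summed per library and given per 1000000 UMIs of that sum (CPM). A ratio of 12 h over 0 h therefore compares 2 libraries, and its exact 95% interval covers counting error alone. A gene was called higher at a ratio of at least 1.5 and lower at 1/1.5 or less.

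Plasmacytoid dendritic cells are round dendritic cells, shaped like the antibody-secreting plasma cell, that circulate in blood and lodge in lymphoid organs and the liver. They sense viral and self nucleic acids with the endosomal receptors TLR7 and TLR9, signal through MyD88 and IRF7, and can then release very large amounts of type I interferon. Their identity rests on the transcription factor TCF4, and receptors that signal through ITAM adaptors, among them Siglec-H in mice, restrain the interferon response. In the liver they are known both for interferon production and for tolerance to antigens that arrive with portal blood.

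Of the IL-22-negative libraries, that of 12 h held 29859062 UMIs in 10231 barcodes and that of 0 h 18891674 UMIs in 8555, and the kept barcodes had medians of 2230 and 1829 UMIs. The members had medians of 3834 UMIs at 12 h and 3832 at 0 h, means of 3848.5 and 3675 and a highest cell of 8682 and 6256, and summed to 1258458 and 793795 UMIs. Ribosomal protein genes took 24.8% of the members' UMIs at 12 h and 22.9% at 0 h, and mitochondrial genes 2.67% and 2.58%. The 2 IL-22-negative libraries had 116 barcodes in common, and 8 members of 12 h and 2 of 0 h carried a barcode that also occurs in another library, none of them a member in both. The 9 and 5 IL-22-positive members summed to 36909 UMIs at 12 h and 25843 at 0 h.

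Siglech, which encodes the surface receptor Siglec-H (GRCm38, chromosome 7, 55768178 to 55778925, plus strand), stood at 1991 CPM at 12 h and 2153 CPM at 0 h in the IL-22-negative members, and at 2547 and 2089.5 CPM in the IL-22-positive ones. Each IL-22-negative member held between 2 and 20 Siglech UMIs at 12 h and between 2 and 24 at 0 h, with a median of 7 at both times. Cox6a2 (chromosome 7, 128205435 to 128206387, minus strand), a cytochrome c oxidase subunit otherwise known from muscle, stood at 2504 CPM at 12 h and 2339 CPM at 0 h and was detected in 89.6% of the cells of 12 h and 88.4% of those of 0 h. Klk1 (chromosome 7, 44225360 to 44229618, plus strand), a tissue kallikrein protease, stood at 2573 CPM at 12 h and 1629 CPM at 0 h, with a median of 6 UMIs per cell at 12 h and 3 at 0 h. In the IL-22-positive members Klk1 was at 2980.3 CPM at 12 h and 2747 CPM at 0 h.

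The label was checked on genes that the rule did not use. Of 44 other identity genes, 42 were at least 2-fold and 35 at least 5-fold above the level in all other barcodes of both IL-22-negative libraries, with a median of 11.8-fold and 1 gene below it. Bst2, the tetherin receptor that marks mouse plasmacytoid dendritic cells, was 15.3-fold above the other barcodes and had UMIs in all 327 cells at 12 h and in 214 of 216 at 0 h. The gut-homing receptor gene Ccr9 was 22.6-fold, the collagen receptor gene Lair1 20.4-fold, Irf8, a dendritic cell transcription factor, 11.4-fold and Tcf4 12.3-fold above them. Among genes of at least 100 CPM and 50 UMIs in the members, outside the rule and the gene classes barred from naming, the highest of such ratios belonged to Gm21762 (45.6-fold), Sh3bgr, Pgam2, a muscle-type phosphoglycerate mutase, Paqr5, Ccdc162 and Klk1b27, a kallikrein gene. The ratios describe cells that Siglech and its partners had picked and carry no test.

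In the IL-22-negative libraries, Bst2, Ccr9, Tcf4, Irf8 and Ly6d were lower just outside the limit on Siglech than just inside it, but not absent. The 25 members of 12 h with exactly 2 Siglech UMIs had 2044 CPM of Ly6d, a surface antigen of plasmacytoid dendritic and B cells, against 492 CPM in 35 cells of the same library that met all else but held 1. At 0 h the values were 1647 CPM in 15 members and 724 CPM in 18 cells outside. Irf8 stood at 1922 CPM inside and 827 CPM outside at 12 h, and at 1516 CPM inside and 739 CPM outside at 0 h. Tcf4 was closer at 12 h, at 444 CPM inside and 373 CPM outside, and had 758 and 440 CPM at 0 h. Bst2 had 5189 CPM inside and 3235 CPM outside at 12 h, and 4470 and 3241 CPM at 0 h. All barcodes other than members held 400 CPM of Bst2. Median depths were 3497 UMIs inside and 4079 outside at 12 h, and 1329 and 3485 at 0 h. Whether the cells outside are of the same type was not tested. The limit on Lyz2 left out 12 cells at 12 h and 0 at 0 h.

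The plasmacytoid dendritic cells formed 3.24% (95% Clopper-Pearson interval 2.90 to 3.60) of the IL-22-negative barcodes at 12 h and 2.60% (2.27 to 2.97) at 0 h, a ratio of shares of 1.24 (1.04 to 1.48). The library of 12 h was the deeper one. With each barcode thinned to 1000 UMIs before the rule was applied, the shares were 2.40% (225 of 9379) at 12 h and 2.54% (164 of 6456) at 0 h, a ratio of 0.944 (0.769 to 1.16). This left out 720 shallower barcodes at 12 h and 1845 at 0 h. Over the same deeper barcodes without thinning, the shares were 3.48% (326 of 9379) at 12 h and 3.25% (210 of 6456) at 0 h, a ratio of 1.07 (0.896 to 1.28). Both of these intervals include 1, so a difference in share was not detectable among barcodes of at least 1000 UMIs. The ratio of shares, not thinned, was 3.70 in conventional dendritic cells and 4.34 in monocytes of the same libraries, 1.29 in T cells and 0.892 in B cells, each class set by a UMI gate of its own.

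Many cells that met the rule in all else were left out for a Cd79a or CD3 UMI. They numbered 127 of 454 (28.0%) at 12 h and 120 of 336 (35.7%) at 0 h, with medians of 4749 and 4164.5 UMIs. With them, the share was 4.50% at 12 h and 4.05% at 0 h, a ratio of 1.11. Whether they are doublets, cells with free RNA of lymphocytes or plasmacytoid dendritic cells that express these genes was not tested. In the IL-22-positive libraries the members formed 0.667% (0.305 to 1.26) of barcodes at 12 h and 1.73% (0.564 to 3.99) at 0 h.

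**Figure D1:**
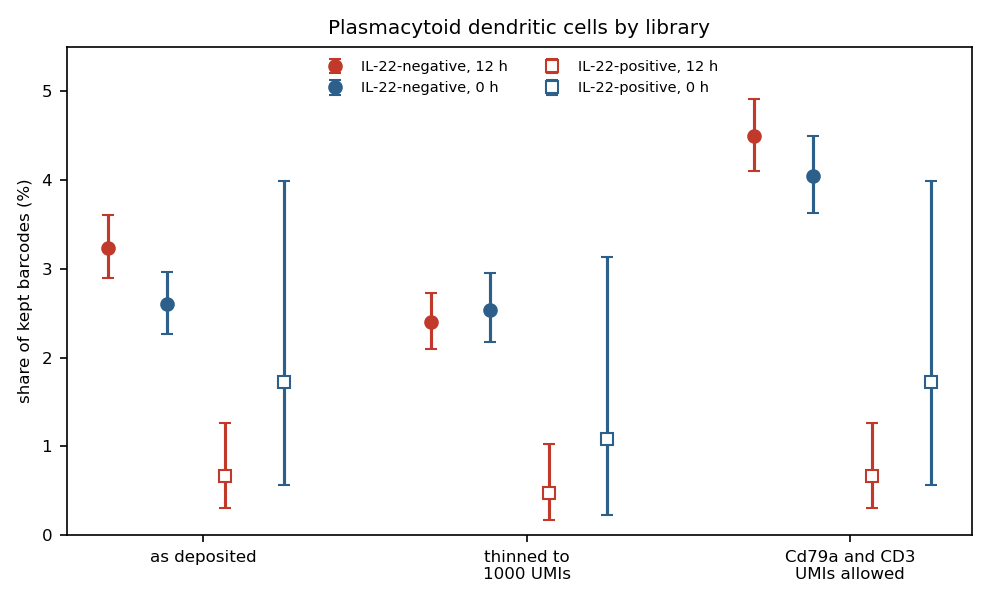
Share of kept barcodes (%) that met the rule in each of the 4 libraries, as deposited, after thinning to 1000 UMIs per barcode, and with Cd79a and CD3 UMIs allowed. Bars are exact 95% intervals for counting error. In the IL-22-negative libraries the point of 12 h lies above that of 0 h as deposited (3.24% and 2.60%) and below it after thinning (2.40% and 2.54%).

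Few genes differed in the plasmacytoid dendritic cells between 12 h and 0 h. Among 1480 genes whose higher sum reached 100 CPM and 50 UMIs, 13 (0.878%) were higher and 22 (1.49%) lower at 12 h by the 1.5-fold rule. The 13 include Klk1 (log2 ratio 0.66), a gene of the rule that chose the cells, which supports nothing and was left out of the naming. At 2-fold, 4 were higher and 1 lower. The median log2 ratio was 0.00, and 1232 of the genes (83.2%) lay within 1.25-fold. By the same rule 117 of 1266 genes were higher and 49 lower in conventional dendritic cells, 183 and 103 of 1413 in monocytes, 79 and 66 of 1301 in B cells, and 10 and 10 of 1290 in T cells. These classes differ in their UMI sums, from 201760 in conventional dendritic cells at 0 h to 11421579 in T cells at 12 h, and counts past a fixed fold rise with sampling noise, so the counts were set side by side and not compared.

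**Figure D2:**
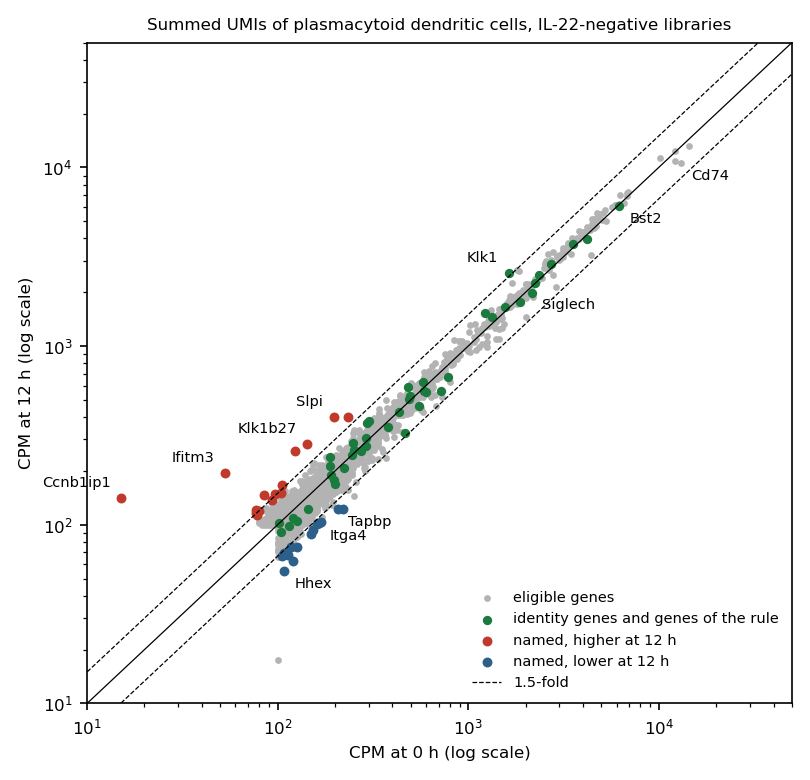
CPM of the summed UMIs at 12 h (y axis) and 0 h (x axis), both on log scales, for the 1480 eligible genes of the IL-22-negative plasmacytoid dendritic cells. Most points lie between the dashed lines of 1.5-fold, while Ccnb1ip1, Ifitm3, Slpi and Klk1b27 lie above them and Hhex, Tapbp and Itga4 below.

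Among the genes higher at 12 h were Ifitm3, an interferon-induced membrane protein that blocks virus entry, Slpi, a secreted inhibitor of leukocyte proteases, and Klk1b27. Ifitm3 (chromosome 7, 141009586 to 141010770, minus strand) stood at 195 CPM (172 to 221) at 12 h and 52.9 CPM (38.1 to 71.5) at 0 h, a ratio of 3.69 (2.65 to 5.26). In the IL-22-positive members it was at 298 CPM at 12 h and 426 CPM at 0 h, on 11 UMIs each. Of the members, 67 (20.5%) held Ifitm3 at 12 h and 23 (10.6%) at 0 h. In T cells 7.63% and 3.15% of the cells held an Ifitm3 UMI at 12 h and 0 h, and in B cells 7.55% and 4.28%, at median depths of 2303 and 2287 UMIs in T cells and 1643 and 1730 in B cells. With each cell thinned to 1000 UMIs, 10.1% of the plasmacytoid dendritic cells held one at 12 h and 4.76% at 0 h. At that depth 4.06% and 1.38% of T cells and 4.19% and 1.87% of B cells held one, so detection was higher at 12 h in all of these classes.

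Other classes also held Ifitm3. Monocytes held 4982 and 6587 CPM at 12 h and 0 h, conventional dendritic cells 4331 and 2984 CPM and T cells 87.1 and 18.5 CPM, with T cells at a ratio of 4.70 (3.90 to 5.70). Monocytes took 4.34 times the share of barcodes at 12 h. The monocyte and macrophage list of 18 genes summed to 333 CPM in the members at 12 h and 236 CPM at 0 h. Of its 5 measured genes 3 were higher (Ms4a6c, Lst1 and Apoe) and Ly6c1 lower. Their log2 ratios had a median of 0.80. These counts stand against 8.42% higher and 16.0% lower among all genes with at least 10 UMIs in the 2 sums. Of the macrophage genes on the list, C1qa, C1qb, C1qc, Adgre1, Clec4f, Vsig4 and Marco were at 0 at both times and Csf1r had 0 and 1 UMI. Both Ifitm3 and the monocyte gene Ms4a6c had UMIs in 25 members at 12 h and 7 at 0 h. When barcodes were thinned to 1000 UMIs before the rule, the Ifitm3 ratio was 1.31, under the 1.5-fold line. The part of monocyte RNA in the Ifitm3 ratio was not tested. Ms4a6c itself, a membrane protein of the myeloid MS4A family, stood at 147 CPM at 12 h and 84.4 CPM at 0 h, a ratio of 1.74 (1.31 to 2.34), and at 1.48 with Cd79a and CD3 UMIs allowed in members.

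Slpi (chromosome 2, 164354070 to 164389095, minus strand) stood at 403 CPM (369 to 439.5) at 12 h and 197 CPM (167 to 229.9) at 0 h, a ratio of 2.05 (1.71 to 2.47), and in the IL-22-positive members at 569 and 464 CPM. A Slpi UMI was found in 48.9% of members at 12 h and in 40.3% at 0 h, against 2.61% and 4.45% of T cells. Monocytes held 681 and 232 CPM of Slpi at 12 h and 0 h and conventional dendritic cells 43.7 and 9.91 CPM, while T cells held 12.7 and 18.0 CPM. Klk1b27 (chromosome 7, 44052290 to 44056712, plus strand) stood at 284 CPM (255 to 315) at 12 h and 142 CPM (117 to 171) at 0 h, a ratio of 1.99 (1.61 to 2.48), and in the IL-22-positive members at 623 and 309.6 CPM. Its UMIs lay in 47.1% of members at 12 h and in 27.3% at 0 h, against 0 of 1827 B cells at 12 h and 2 of 1684 at 0 h. Klk1, a gene of the rule, lies on the same chromosome, and reads of kallikrein paralogs may have been split between near-identical copies, so both values are uncertain.

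The other higher genes had smaller ratios. Sdf2l1, a partner of the endoplasmic reticulum chaperone BiP, stood at 168 CPM at 12 h and 106 CPM at 0 h, a ratio of 1.58 (1.22 to 2.07). Cdk4, the kinase of G1 progression, had 148 and 97.0 CPM (ratio 1.52, 1.16 to 2.01), Utp3, a ribosome biogenesis factor, 121 and 76.8 CPM (ratio 1.57, 1.16 to 2.15), and the lysosomal membrane gene Glmp 120.0 and 79.4 CPM (ratio 1.51, 1.12 to 2.06). Man1a2, a mannosidase that trims N-glycans in the Golgi, had 116 and 76.8 CPM at 12 h and 0 h (ratio 1.51, 1.11 to 2.07). Hnrnpc, Ten1 and Bscl2 lay just under the 1.5-fold line, at ratios of 1.47, 1.45 and 1.44. After thinning, the ratios were 1.36 for Sdf2l1, 0.772 for Utp3, 1.18 for Glmp and 0.972 for Man1a2, and with Cd79a and CD3 UMIs allowed in members 1.34 for Cdk4, so these calls ended there. Cdk4, Utp3, Glmp and Man1a2 fell under the line in further alternatives as well. The ratios of Slpi and Klk1b27 stayed above 1.5 and inside their counting intervals in each alternative run for them. That of Ccnb1ip1 stayed above 1.5 too but left its interval in some, as given below. The minimum of 100 CPM and 50 UMIs was not applied again in the alternatives of single genes.

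Few cells held most UMIs of 3 genes with high ratios. Gzma, a granzyme of cytotoxic lymphocytes, stood at 258 CPM at 12 h and 123 CPM at 0 h, and Ccl5, a chemokine of the same cells, at 399 CPM at 12 h and 234 CPM at 0 h, but 2 cells held 66.8% of the Gzma UMIs and 56.0% of the Ccl5 UMIs of 12 h. Of the members, 8 at 12 h and 3 at 0 h held at least 10 UMIs of the 10 other genes of the natural killer cell and ILC1 list. They held 288 of 325 Gzma UMIs at 12 h and 51 of 98 at 0 h, and 424 of 502 and 59 of 186 Ccl5 UMIs. Without them the log2 ratios were -0.98 for Gzma and -1.34 for Ccl5, so the direction turned. A Ccl5 UMI was found in 24.5% of members at 12 h and 44.9% at 0 h, against 26.8% and 45.4% of B cells, and a Gzma UMI in 12.2% and 19.4%, against 11.8% and 18.5% of B cells. With all cells thinned to 1000 UMIs, Ccl5 was found in 8.28% and 14.8% of members, against 18.2% and 29.7% of B cells, and Gzma in 4.91% and 8.10%, against 7.75% and 10.9%. Both shares were at or below those of B cells at equal depth, so no expression was read from them, and the part of free RNA was not tested. For Ccnb1ip1, a ubiquitin ligase of meiotic recombination, 2 cells held 67.4% of the UMIs of 12 h, and 32 cells held a UMI at 12 h and 10 at 0 h. A single cell held 84 of its 178 UMIs of 12 h. The Ccnb1ip1 log2 ratio was 3.23, and 2.30 without the members rich in natural killer genes. It was 2.31 with at least 3 Siglech UMIs and 1.96 after thinning. Whether the gene still met the minimum of 100 CPM there was not tested.

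**Figure D3:**
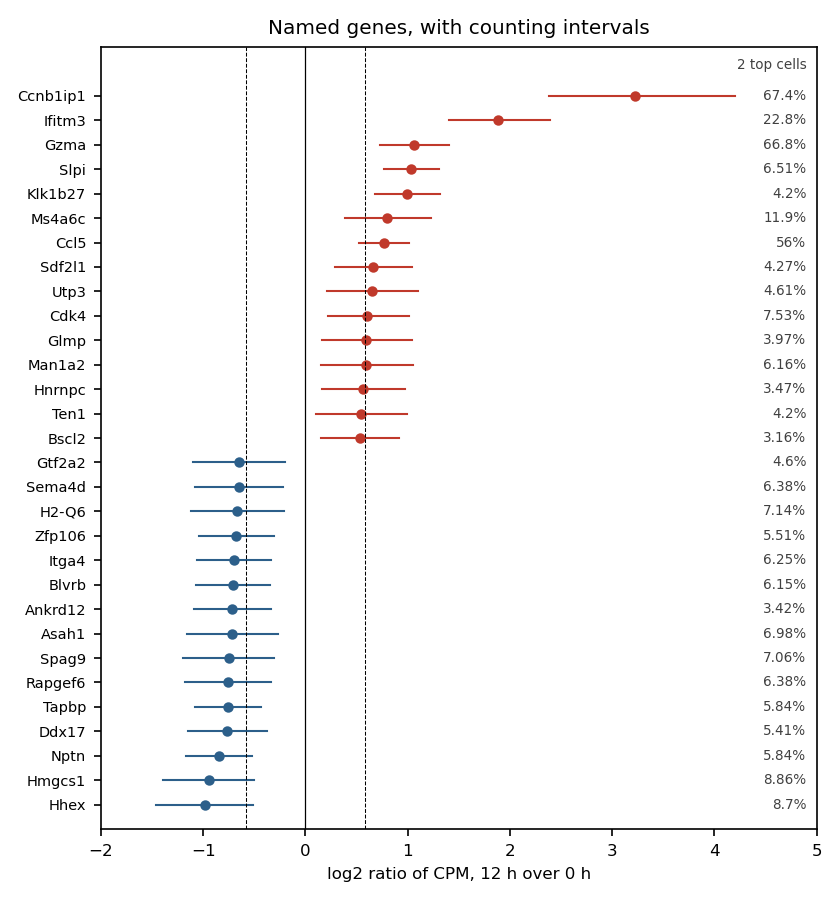
Log2 ratio of CPM, 12 h over 0 h, of the 15 genes with the highest and the 15 with the lowest ratios in IL-22-negative plasmacytoid dendritic cells, with exact 95% intervals for counting error. Dashed lines mark 1.5-fold. The numbers on the right give the share of each gene's UMIs of 12 h that lay in the 2 cells with most of them, which is 67.4% for Ccnb1ip1, 66.8% for Gzma and at most 8.86% for the genes with low ratios.

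Among the genes lower at 12 h were a homeobox gene of dendritic cell development, an enzyme of cholesterol synthesis, a subunit of an adhesion integrin and the peptide-loading chaperone of MHC class I. Hhex, the homeobox gene (chromosome 19, 37434810 to 37440731, plus strand), had 69 UMIs at 12 h and 86 at 0 h, which is 54.8 CPM (42.7 to 69.4) and 108 CPM (86.7 to 134), a ratio of 0.506 (0.363 to 0.703). Hmgcs1, the cholesterol synthesis enzyme HMG-CoA synthase, stood at 62.8 CPM at 12 h and 121 CPM at 0 h, a ratio of 0.519 (0.380 to 0.706). Nptn, the adhesion protein neuroplastin, stood at 122 CPM at 12 h and 219 CPM at 0 h (ratio 0.558, 0.446 to 0.697). Tapbp, the chaperone tapasin, stood at 122 CPM at 12 h and 207 CPM at 0 h (ratio 0.592, 0.472 to 0.743), and a Tapbp UMI was found in 33.3% and 51.9% of the cells. The Tapbp ratio was 0.957 after thinning to 1000 UMIs, where its call ended. Itga4, the alpha chain of the integrin VLA-4, stood at 102 CPM at 12 h and 165 CPM at 0 h (ratio 0.616, 0.479 to 0.792).

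In the IL-22-positive members Hhex stood at 54.2 and 77.4 CPM at 12 h and 0 h, Nptn at 189.7 and 155 CPM and Itga4 at 163 and 38.7 CPM, each on at most 7 UMIs. Several of these were lower at 12 h in other classes as well. Itga4 had a ratio of 0.461 (0.315 to 0.687) in conventional dendritic cells, 0.574 (0.454 to 0.732) in monocytes, 0.656 (0.575 to 0.750) in B cells and 0.624 (0.569 to 0.686) in T cells. Nptn had ratios of 0.488 (0.321 to 0.757), 0.663 (0.457 to 0.985), 0.558 (0.428 to 0.724) and 0.707 (0.621 to 0.805) in the same order of classes. In conventional dendritic cells Hmgcs1 had a ratio of 0.275 (0.156 to 0.496), on 33 UMIs at 12 h and 22 at 0 h. Hhex had one of 0.551 (0.239 to 1.42) there, on 24 and 8 UMIs, with an interval that includes 1. Tapbp, by contrast, had ratios of 0.968 (0.610 to 1.60) in conventional dendritic cells and 1.06 (0.949 to 1.18) in T cells. The 10 others named were the RNA helicase gene Ddx17 (0.588), Rapgef6 (0.593), the scaffold gene Spag9 (0.596), the acid ceramidase gene Asah1 (0.610), Ankrd12 (0.610), the biliverdin reductase gene Blvrb (0.612), Zfp106 (0.626), the class I gene H2-Q6 (0.631), the semaphorin gene Sema4d (0.638) and the general transcription factor gene Gtf2a2 (0.638). H2-Q6 is one of several near-identical class I genes, so its counts are uncertain. The 1.5-fold call ended after thinning for Ddx17, Zfp106, Sema4d and Gtf2a2, and with Cd79a and CD3 UMIs allowed for Ddx17, Tapbp, Rapgef6, Asah1, Ankrd12, Blvrb and H2-Q6. The ratios of Hhex, Hmgcs1, Nptn and Itga4 stayed past the 1.5-fold line in each alternative run for them, again without the minimum of 100 CPM and 50 UMIs. Igkc, Igkv1-110 and the hepatocyte gene Ass1 were lower too and were left out of the naming as antigen receptor and free-RNA genes.

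The identity genes differed little between 12 h and 0 h. Of 43 measured identity genes (at least 10 UMIs in the 2 sums) 0 were higher and 0 lower, against 8.42% higher and 16.0% lower among all 8404 genes so measured, and their median log2 ratio was -0.02, against -0.08 over all of these. The list summed to 34461 CPM at 12 h and 34456 CPM at 0 h, a ratio of 1.00 (0.985 to 1.02), and to 39475 and 41443 CPM in the IL-22-positive members. Since many identity genes are abundant, they also have less counting noise than the average gene. Bst2 stood at 6075 CPM at 12 h and 6162 CPM at 0 h, Irf8 at 2242 CPM at 12 h and 2235 CPM at 0 h, Ly6d at 3957 CPM at 12 h and 4213 CPM at 0 h and Ly6c2, a surface antigen, at 3745 CPM at 12 h and 3560.1 CPM at 0 h. Ccr9 stood at 627 CPM at 12 h and 578 CPM at 0 h and Tcf4, the master transcription factor of the lineage, at 551 CPM at 12 h and 597 CPM at 0 h. The measured identity gene farthest from 1 was Cd209d, a C-type lectin, at 327 and 464 CPM (ratio 0.704, 0.611 to 0.813). Tlr9 followed at 22.2 and 29.0 CPM (log2 ratio -0.38), on 51 UMIs over both times. Next came the growth factor precursor gene Grn at 563 and 719 CPM (ratio 0.782, 0.699 to 0.875). Mzb1, a chaperone of secretory cells, stood at 379 and 299.8 CPM (ratio 1.26, 1.08 to 1.48).

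Of 26 measured transcription factor genes of dendritic cells, 1 was higher and 2 lower at 12 h (8.42% of all measured genes were higher and 16.0% lower). Spib stood at 122 CPM at 12 h and 145 CPM at 0 h, Bcl11a at 276 CPM at 12 h and 289.7 CPM at 0 h, Runx2 at 259.8 CPM at 12 h and 275 CPM at 0 h and Zeb2 at 198 CPM at 12 h and 210.4 CPM at 0 h. Irf4 was the higher one, on 23 and 6 UMIs, and Zeb1 and Myb the lower ones at 0.602 and 0.591, on at most 22 UMIs each. Zbtb46, the factor of conventional dendritic cells, had 3 UMIs at 12 h and 0 at 0 h, and Batf3 had 1 and 0. Of 25 measured receptors of the ITAM and inhibitory signalling set, 0 were higher and 4 lower, which is near the 16.0% over all measured genes. Tyrobp, which encodes the DAP12 adaptor through which Siglec-H signals, stood at 7163 CPM at 12 h and 6848 CPM at 0 h, and Fcer1g at 1648 CPM at 12 h and 1616 CPM at 0 h. The lower ones were Btk (0.593), the inhibitory Fc receptor gene Fcgr2b (0.466), Pilra and Cd84.

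Of 28 measured genes for sensing nucleic acids 0 were higher and 3 lower at 12 h (8.42% of all measured genes were higher and 16.0% lower). The median log2 ratio was -0.26, while the list summed to 5913 CPM at 12 h and 5620 CPM at 0 h. The sum leans on the abundant Hsp90b1, which folds the receptors, and the protease gene Ctsl, which stood at 1529 CPM at 12 h and 1229.5 CPM at 0 h (ratio 1.24, 1.15 to 1.34). Tlr7, the receptor for single-stranded RNA, stood at 51.7 CPM at 12 h and 46.6 CPM at 0 h (ratio 1.11, 0.729 to 1.71) and was found in 17.4% and 14.8% of the cells. Tlr9, the receptor for unmethylated DNA, stood at 22.2 CPM at 12 h and 29.0 CPM at 0 h (ratio 0.768, 0.427 to 1.40). The 3 lower genes were Tlr12 at 15.9 and 35.3 CPM (ratio 0.451, 0.241 to 0.829), the ubiquitin ligase gene Traf6 at 31.0 and 57.9 CPM (ratio 0.535, 0.340 to 0.838) and Mavs, on 6 UMIs at each time. Unc93b1, which carries the receptors to endosomes, stood at 321 CPM at 12 h and 367 CPM at 0 h and Irf7, the switch to interferon production, at 214 CPM at 12 h and 188 CPM at 0 h (ratio 1.14, 0.929 to 1.40).

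No interferon transcript was captured from the IL-22-negative plasmacytoid dendritic cells at either time. The 18 type I and type III interferon genes in the features (the Ifna genes, Ifnab, Ifnb1, Ifne, Ifnl2 and Ifnl3) together had 0 UMIs at 12 h and 0 at 0 h. The 3 UMIs that stand for a sum of 0 would be 2.38 CPM at 12 h and 3.78 CPM at 0 h. In as many cells they would be 0.917% and 1.39% of the members. These values are no limits of an exact interval and bound no share of expressing cells. In the IL-22-positive members 1 Ifnb1 UMI was found at 0 h. Il6, Il10, Il12b and Il22 had 0 UMIs in the IL-22-negative members at both times, and Tnf had 9 and 8. Il12a, which encodes the p35 subunit of interleukin 12, had 20 UMIs at 12 h and 4 at 0 h, a ratio of 3.15 (1.06 to 12.7). Ccl4, a chemokine that attracts lymphocytes, was abundant at 1586 CPM at 12 h and 1316 CPM at 0 h (ratio 1.20, 1.12 to 1.30), and Ccl3 stood at 109 CPM at 12 h and 86.9 CPM at 0 h. The 9 measured genes of the interferon and cytokine list included 2 higher ones, Il12a and Ccl5, and 0 lower ones, but the log2 ratio of Ccl5 was -1.34 without the members rich in natural killer genes.

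Summed over the list, transcripts of interferon-stimulated genes were at about the same level at both times, while single genes passed the 1.5-fold line each way. Of 46 measured genes 8 were higher and 5 lower at 12 h, against 8.42% and 16.0% of all genes so measured. Their median log2 ratio was 0.08, against -0.08 for those genes. After thinning to 1000 UMIs the medians were -0.13 and -0.04. The list summed to 10315 CPM at 12 h and 9865 CPM at 0 h, a ratio of 1.05 (1.02 to 1.08). Of the higher ones, Ifitm3, Slfn5 at 84.2 and 41.6 CPM (ratio 2.03, 1.36 to 3.09) and Phf11b at 89.8 and 56.7 CPM (ratio 1.58, 1.11 to 2.29) rested on over 100 UMIs. The others, Rsad2, Oasl1, Oas1a, Zbp1 and Phf11d, had at most 24 UMIs at 12 h and intervals that reach below 1. Isg15, a ubiquitin-like modifier, stood at 203 CPM at 12 h and 149.9 CPM at 0 h (ratio 1.35, 1.08 to 1.69) and Ifi27l2a at 1309 CPM at 12 h and 1017 CPM at 0 h (ratio 1.29, 1.18 to 1.40). In the IL-22-positive members Isg15 stood at 433 and 116 CPM, and the list summed to 13547 CPM at 12 h and 11492.5 CPM at 0 h, on 9 and 5 cells.

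The lower interferon-stimulated genes numbered 5 of 46, under the 16.0% over all measured genes, and are named as a description only. Irf9, the DNA-binding subunit of the ISGF3 complex, stood at 50.1 CPM at 12 h and 78.1 CPM at 0 h (ratio 0.641, 0.444 to 0.925), and Usp18, which damps the receptor, at 33.4 CPM at 12 h and 54.2 CPM at 0 h (ratio 0.616, 0.393 to 0.965). Dhx58, Cmpk2 and Eif2ak2 were the other lower ones, and Stat2 stood just outside the line at 73.1 and 103 CPM (ratio 0.708, 0.520 to 0.965). The receptor chain gene Ifnar2 stood at 542 CPM at 12 h and 485 CPM at 0 h. Of 15 measured genes of interferon receptor signalling, 3 were higher (Jak2, Socs1 and Socs3, on at most 36 UMIs) and 3 lower (Irf9, Usp18 and Ifngr1). Of 18 measured genes of the interferon gamma response, 3 were higher and 3 lower. Over all measured genes 8.42% were higher and 16.0% lower, and the intervals of Jak2, Socs1 and Socs3 each include 1.

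The same list was set beside its values in other classes of these libraries, where the difference between classes could not be tested with 1 library per group. In T cells 22 of 53 measured interferon-stimulated genes were higher at 12 h and 0 lower, the median log2 ratio being 0.48, and in conventional dendritic cells 22 of 51 were higher and 3 lower, with a median of 0.46. In B cells 7 of 50 were higher and 7 lower, with a median of -0.26, and in monocytes 5 of 52 were higher and 14 lower, with a median of -0.36. Over all measured genes, 5.36% were higher and 11.5% lower in T cells, 16.5% and 23.7% in conventional dendritic cells, 6.79% and 17.0% in B cells and 17.1% and 22.3% in monocytes. Isg15 had a ratio of 2.64 (2.48 to 2.81) in T cells, 2.02 (1.54 to 2.69) in conventional dendritic cells, 2.07 (1.72 to 2.51) in B cells and 1.48 (1.27 to 1.75) in monocytes. Bst2 had a ratio of 0.986 (0.951 to 1.02) in plasmacytoid dendritic cells and 1.99 (1.85 to 2.13) in T cells, where it stood at 319.9 and 161 CPM at 12 h and 0 h. Usp18 had a ratio of 2.44 (1.95 to 3.09) in T cells, and Irf7 1.43 (1.26 to 1.64).

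**Figure D4:**
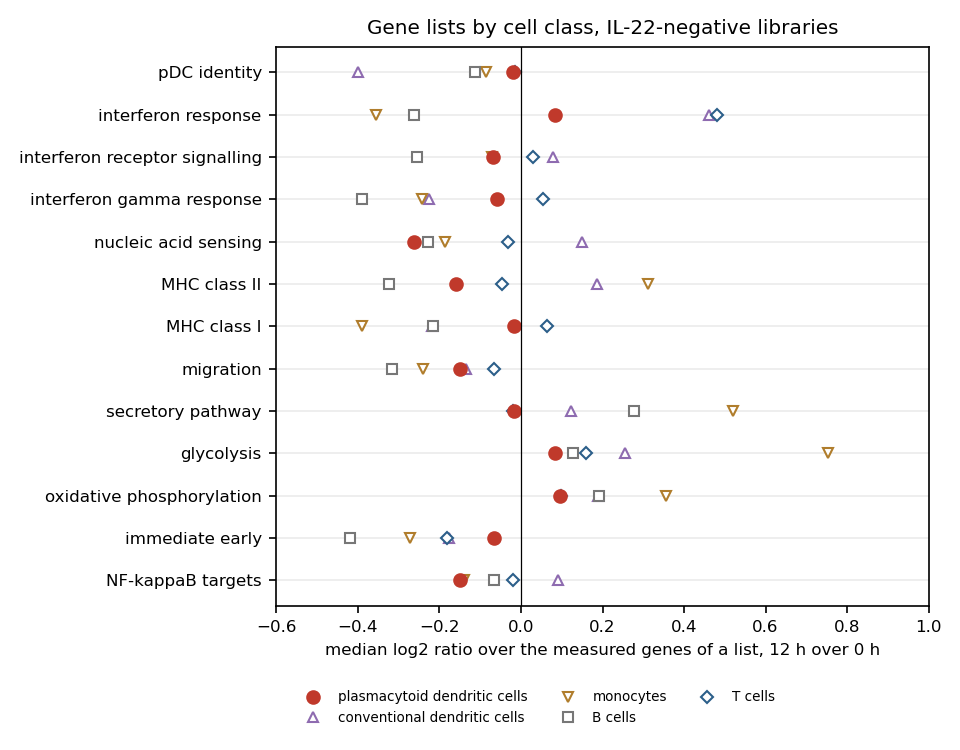
Median log2 ratio of CPM, 12 h over 0 h, over the measured genes of 13 lists, in the plasmacytoid dendritic cells (filled circles) and in 4 other cell classes of the IL-22-negative libraries (open symbols). The interferon response list lies at 0.08 in plasmacytoid dendritic cells, 0.46 in conventional dendritic cells and 0.48 in T cells, and the MHC class II list at -0.16 in plasmacytoid and 0.19 in conventional dendritic cells.

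MHC class II transcripts, which serve antigen presentation to CD4 T cells, made up a smaller share of the plasmacytoid dendritic cells' UMIs at 12 h, by less than 1.5-fold. The 12 genes summed to 17943 CPM at 12 h and 21259 CPM at 0 h, a ratio of 0.844 (0.827 to 0.861). The sum is set mainly by Cd74, the invariant chain, at 10560.5 CPM at 12 h and 13108 CPM at 0 h (ratio 0.806, 0.785 to 0.827). H2-Ab1 stood at 1096 CPM at 12 h and 1405 CPM at 0 h (ratio 0.780, 0.720 to 0.845), H2-Eb1 at 1050.5 CPM at 12 h and 1257 CPM at 0 h (ratio 0.836, 0.769 to 0.908) and H2-Aa at 2488 CPM at 12 h and 2790.4 CPM at 0 h (ratio 0.892, 0.844 to 0.942). None of these 4 passed the 1.5-fold line, and of the 12 genes 1 was higher (8.42% over all measured genes; Ciita, the master regulator of the class, on 26 and 8 UMIs) and 1 lower (16.0% over all measured genes; H2-Ob). Ctss, the protease that degrades the invariant chain, stood at 869 CPM at 12 h and 769.7 CPM at 0 h. In conventional dendritic cells, which held 65369 CPM of the list at 12 h and 56865 CPM at 0 h, Cd74 had a ratio of 1.14 (1.11 to 1.17), in monocytes 1.26 (1.20 to 1.32) and in B cells 0.877 (0.869 to 0.884). In the IL-22-positive plasmacytoid dendritic cells Cd74 stood at 7261 and 12924 CPM at 12 h and 0 h and the list summed to 15254 CPM at 12 h and 22598 CPM at 0 h.

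Of 19 measured MHC class I genes 0 were higher and 3 lower, Tapbp, H2-Q6 and the regulator gene Nlrc5. The lower ones are near the 16.0% over all measured genes, while the list summed to 10289 CPM at 12 h and 10275 CPM at 0 h. H2-K1 stood at 1605 CPM at 12 h and 1513 CPM at 0 h, H2-D1 at 1464 CPM at 12 h and 1445 CPM at 0 h and B2m, the light chain, at 2201 CPM at 12 h and 2091 CPM at 0 h. Of 9 measured genes of maturation and co-stimulation 0 were higher and 0 lower. Cd86, a ligand of CD28, had 12 UMIs at 12 h and 6 at 0 h, Cd80 had 1 and 0, Cd40 had 4 and 3, Cd83 had 0 and 4, and Ccr7, the receptor for lymph node homing, had 1 and 7. Cd69, an early activation antigen, stood at 282 CPM at 12 h and 295 CPM at 0 h (ratio 0.957, 0.809 to 1.13).

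Among 24 measured genes of migration 2 were higher and 2 lower, no more than the 8.42% and 16.0% over all measured genes. The lower ones were Itga4 and Itgal, the alpha chain of the integrin LFA-1, at 69.1 and 105 CPM (ratio 0.661, 0.484 to 0.904), and the adhesion receptor gene Cd44 stood at 124 CPM at 12 h and 176 CPM at 0 h (ratio 0.703, 0.556 to 0.889). The higher ones were Cxcr4 and Cx3cr1, on 16 and 9 UMIs at 12 h and 2 each at 0 h. 2 chemokine receptors used for entry into tissues stayed within 1.25-fold. Ccr9 had a ratio of 1.08 and Cxcr3 one of 1.02. Klf2, which governs egress genes, stood at 1718 CPM at 12 h and 1813 CPM at 0 h.

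The lists of the secretory pathway and of metabolism are read against 8.42% higher and 16.0% lower over all measured genes. Of 30 measured genes of the secretory pathway and the unfolded protein response 1 was higher (Sdf2l1) and 1 lower (the chaperone gene Dnajb11, ratio 0.614, 0.439 to 0.859). Hspa5, which encodes BiP, stood at 439 CPM at 12 h and 563 CPM at 0 h (ratio 0.779, 0.686 to 0.884), Xbp1, the secretory cell transcription factor, at 137 CPM at 12 h and 137 CPM at 0 h, and Sec61b, a subunit of the translocon, at 1819 CPM at 12 h and 1636 CPM at 0 h. Of 35 genes of oxidative phosphorylation 0 were higher and 0 lower, and the median log2 ratio was 0.10. Of 17 measured glycolysis genes 2 were higher, Hk2 and Bnip3, and 1 lower, Pfkl, each on at most 20 UMIs at a time, and Gapdh stood at 2056 CPM at 12 h and 1939 CPM at 0 h. The glycolysis median was 0.08 in plasmacytoid dendritic cells and 0.75 in monocytes, where 14 of 20 genes were higher.

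The remaining lists stand against the same shares of 8.42% higher and 16.0% lower. Of 29 measured immediate early and dissociation genes 3 were higher and 2 lower. Fos stood at 1321 CPM at 12 h and 1546 CPM at 0 h (ratio 0.854, 0.793 to 0.921) and Jun at 551 CPM at 12 h and 718 CPM at 0 h (ratio 0.768, 0.686 to 0.859). Of 20 NF-kappaB targets 2 were higher and 3 lower, among them the subunit gene Nfkb2 at 13.5 and 34.0 CPM (ratio 0.397, 0.203 to 0.756). Of 16 survival genes 1 was higher (Bad, ratio 1.55, 1.05 to 2.34) and 2 lower (Bcl2 and Bcl2a1b), and of 12 cell cycle genes 1 was higher and 1 lower. The division genes Ccna2 and Ccnb2 had 0 UMIs at both times and Ccnb1 had 3 at 12 h and 0 at 0 h. Of 15 measured receptors for FLT3 ligand, interleukin 3, interferon lambda and other cytokines 0 were higher and 2 lower (Il4ra and Tgfbr2), and Flt3 itself stood at 54.8 CPM at 12 h and 66.8 CPM at 0 h. Of 9 genes of the glucocorticoid and stress list 0 were higher and Fkbp5 was lower.

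The spread of single genes over the cells of one library was described next. After each cell was thinned to 1000 UMIs, the variance of a gene over cells was divided by its mean, and the median over 1416 genes was 1.04 at 12 h and 1.03 at 0 h, near the 1 that sampling alone gives. Of the 20 genes with the highest values in each library 14 were shared. Gm42418 had the highest value at both times, 20.3 at 12 h and 12.7 at 0 h, and the nuclear RNA Malat1 (8.35 and 9.99) and Lars2, a mitochondrial leucyl-tRNA synthetase gene (9.41 and 6.49), were among the 5 highest at both. Cd74 had values of 6.08 at 12 h and 6.70 at 0 h, the saposin precursor gene Psap 5.64 and 3.92, Ly6c2 4.15 and 3.33, Ly6a 3.49 and 3.47, Ly6d 3.08 and 4.14, and Ccl4 3.29 and 3.47. Ccl5 and Gzma, at 14 and 10.3 at 12 h and 2.18 and 3.23 at 0 h, had their UMIs mostly in the few cells described above. As a check of depth, 326 members of 12 h and 210 of 0 h reached 1000 UMIs.

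Per cell, MHC class II took a median of 170 UMIs per 10000 at 12 h and 214 at 0 h, with quartiles of 92.6 and 264 at 12 h and of 113 and 289 at 0 h. The interferon-stimulated genes had medians of 94.6 at 12 h and 94.4 at 0 h, and a highest cell of 483 at 12 h and 262 at 0 h. The identity list had medians of 338 and 341, and no cell below 162 at 12 h or 150.2 at 0 h. Of single genes, Cd4, a surface receptor found on a subset of these cells, was found in 21.1% of members at 12 h and in 30.1% at 0 h, against 0.602% and 1.01% of B cells. Dntt, the terminal transferase of lymphoid rearrangement, was found in 22.3% of members at 12 h and in 19.4% at 0 h, against 0.109% and 0.0594% of B cells. Lag3, an inhibitory receptor gene, had UMIs in 30.6% and 36.1% of members, against 0.712% and 0.416% of B cells. T cells held Dntt in 0.118% and 0.222% of cells and Lag3 in 2.82% and 3.45%. The B cells were shallower, with medians of 1643 and 1730 UMIs against 3834 and 3832 in the members.

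**Figure D5:**
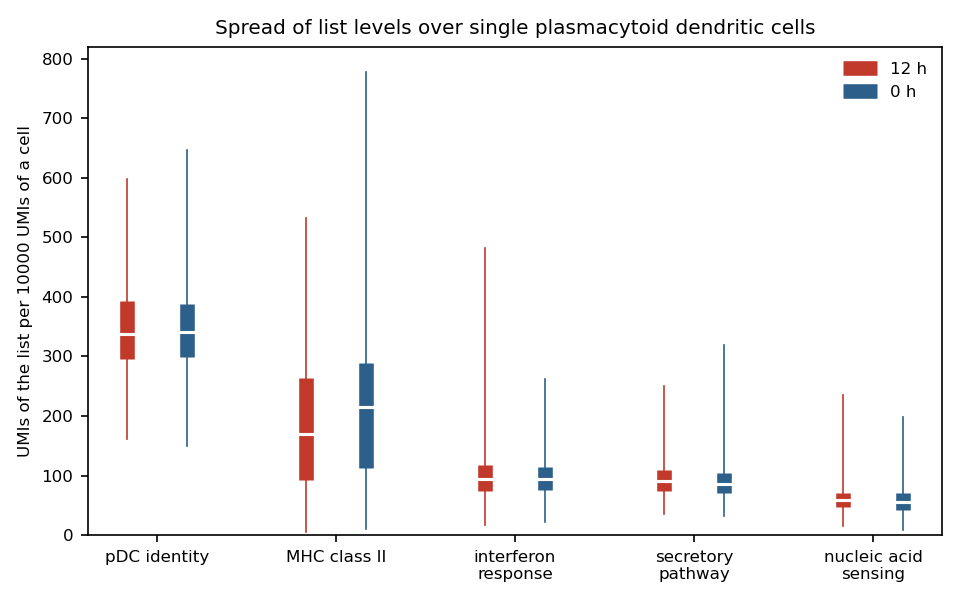
UMIs of 5 gene lists per 10000 UMIs of a cell in the 327 members of 12 h and the 216 of 0 h of the IL-22-negative libraries. Boxes reach from the lower to the upper quartile of the cells, white marks are medians and lines reach the lowest and highest cell. MHC class II has medians of 170 at 12 h and 214 at 0 h, while those of the identity list are 338 and 341.

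Markers of most other cell types were low but not all absent among the members, while the transitional dendritic cell list was not low. The list of 11 B cell genes summed to 358 CPM at 12 h and 343 CPM at 0 h, of which Ighm, known to be transcribed in plasmacytoid dendritic cells, took 241 and 180.1 CPM. Ms4a1, a B cell surface antigen, had 2 UMIs at 12 h and 12 at 0 h. The T cell list summed to 431 and 387 CPM, of which Cd8b1 took 339 and 268 CPM, while Trac had 2 and 3 UMIs. The natural killer and ILC1 list summed to 1133 CPM at 12 h and 800 CPM at 0 h, with Klrd1 at 329 and 299 CPM. The conventional dendritic cell list summed to 618 CPM at 12 h and 765 CPM at 0 h, with Xcr1 at 0 at both times. Only 55 of 327 members at 12 h and 26 of 216 at 0 h held no UMI of that list. Its median per cell was 5.36 UMIs per 10000 at 12 h and 6.42 at 0 h. The transitional dendritic cell list had the highest sum of these marker lists, 3455 CPM at 12 h and 4101 CPM at 0 h (ratio 0.843, 0.805 to 0.882). It summed to 12467 and 13283 CPM in conventional dendritic cells. Of its genes, Axl had 1 and 0 UMIs, and of 11 measured ones 1 was higher (Cx3cr1) and 0 lower. The lists of neutrophils (7.15 CPM at 12 h and 3.78 CPM at 0 h), basophils and mast cells (0.795 and 0), and red cells and platelets (9.54 and 5.04) were near 0. The plasma cell list stood at 110 and 178 CPM, the endothelial list at 109 and 102 CPM and the hepatocyte list at 141 and 156 CPM. The part of such RNA in the ratios above was not tested.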

How the data were processed

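Single-cell 3' libraries of CD45-positive liver leukocytes, sorted by BFP, were available as 1 matrix per group. The deposited values are raw UMI counts. The file headers name Cell Ranger 4.0.0, whereas version 3.0.1 and the build mm10 stand in the submitters' processing notes. Of the 32285 features, 32235 matched GENCODE vM21, which gave GRCm38 coordinates. The 4 matrices hold no column of any other sample.

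The filters on barcodes were a minimum of 200 genes and a mitochondrial share under 10%. No doublets were removed, and members were chosen by the rule. Member counts were summed per library and scaled to CPM (Python 3.11.15, numpy 2.4.6, scipy 1.17.1, pandas 2.3.3). Intervals (exact conditional binomial for ratios, Clopper-Pearson for shares, 95%) cover counting error only. A sum of 0 was set to 3 UMIs. Named genes are the 15 highest and 15 lowest ratios among 1480 eligible genes (100 CPM and 50 UMIs reached by the higher sum), without mitochondrial, ribosomal, antigen receptor, sex-linked, haemoglobin, hepatocyte and rule genes, besides list members and the genes most enriched over other barcodes. Others, such as Psap, Ly6a, Dntt, Igkc and Igkv1-110, were named after their values were seen. The 33 lists hold 670 genes, of which 4 were not in the features. Members and lists were chosen with earlier results of these data known. Compared classes were set by UMI gates: conventional dendritic cells by at least 2 UMIs of Zbtb46, Flt3, Xcr1, Clec9a and Cd209a, monocytes by at least 5 of Lyz2 and 1 of Csf1r, Ccr2 and Ly6c2, and B and T cells by at least 2 of Cd79a and of the CD3 genes, each without Siglech and with the genes of the other classes barred or limited. Scrublet (scanpy 1.11.5) scores served as an alternative. The interval code was tested on simulated data.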

Additional observations from a re-analysis of the deposited data

Results flagged for a closer look

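For 3 genes the log2 ratio of 12 h over 0 h had opposite directions past the 1.5-fold line in plasmacytoid dendritic cells and in another class of the same libraries. With 1 library per group the difference was not tested. Ddx17, an RNA helicase gene, had log2 ratios of -0.77 in plasmacytoid dendritic cells and 0.76 in conventional dendritic cells. The latter rests on 129 UMIs at 12 h and 14 at 0 h, and the interval of its ratio (1.69, 0.973 to 3.18) includes 1. In plasmacytoid dendritic cells the Ddx17 ratio was 0.697 after thinning and 0.692 with Cd79a and CD3 UMIs allowed, where its call ended. Gzma had 1.06 in plasmacytoid dendritic cells and -0.90 in monocytes, and Ccl5 had 0.77 and -1.58. The 2 values of plasmacytoid dendritic cells for Gzma and Ccl5 rest on few cells and turned direction without the members that hold natural killer cell genes, so no direction of these genes in the plasmacytoid dendritic cells can be read from them.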

How the results depend on the processing

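No paired analysis was possible because each group has 1 library, and for the same reason no replicate could be left out. The gene counts were recomputed under 18 alternatives, the list medians under 17, each named gene under 16 and the share under 10. Of these, 4 (Cd79a and CD3 UMIs allowed, without members rich in natural killer genes, without members with a shared barcode, only barcodes of at least 1000 UMIs) were chosen after seeing the data. With barcodes thinned to 1000 UMIs, the ratio of shares was 0.944, the interferon response median was -0.13, and 26 genes were higher and 14 lower of 633 eligible ones. With at least 10 UMIs and no CPM minimum, 607 genes were higher and 912 lower of 7347, and at 2-fold 4 were higher and 1 lower. With Cd79a and CD3 UMIs allowed 23 genes were higher. The count of lower genes was 42 with no Lyz2 UMI allowed, 34 without the highest Scrublet scores (17 of 327 members at 12 h and 13 of 216 at 0 h) and 37 with the mean over cells. The identity median lay between -0.12 and 0.02. Of 480 recomputed log2 ratios of named genes, 459 stayed inside the counting interval, 14 moved out of it and 7 reversed. Gzma was -0.94 without high Scrublet scores and -0.98 without members rich in natural killer genes, and Ccl5 was -1.63 and -1.34, and -0.03 after thinning. Utp3 was -0.37 and Man1a2 -0.04 after thinning, where Ifitm3 was 0.39, against 1.89. The cause of these moves was not tested, except that thinning leaves fewer UMIs and other members. Scaling by the median ratio shifted the log2 ratios by 0.001 and leaving out mitochondrial and ribosomal UMIs by 0.039. Depth limits the values, and genes of few UMIs have wide intervals (Il12a, 1.06 to 12.7).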

Other observations

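Ribosomal protein genes of the plasmacytoid dendritic cells leaned upward together at 12 h. Of 82 eligible ones 75 had a ratio above 1, with a median log2 ratio of 0.10, and together they took 24.8% of UMIs at 12 h and 22.9% at 0 h, and 29.2% and 25.7% in the IL-22-positive members. They were left out of the naming, and none is described as changed.

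Igkc and Igkv1-110, a constant region and a variable segment of the immunoglobulin kappa light chain, were lower at 12 h in the plasmacytoid dendritic cells and were named after their values were seen. Igkc stood at 145 CPM at 12 h and 252 CPM at 0 h, a ratio of 0.577 (0.470 to 0.709), and the single segment Igkv1-110 had 22 UMIs at 12 h and 80 at 0 h. Jchain, the joining chain of secreted antibody, had 24 UMIs at 12 h and 42 at 0 h, a ratio of 0.360 (0.209 to 0.609). The plasma cell list summed to 110 and 178 CPM in the same cells. The part of free RNA from plasma cells in these values was not tested.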
